A study of Homo sapiens with 15 samples.

Results

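The cytosolic ribosome of human cells is built from ribosomal RNA and a full set of ribosomal proteins, which sit in a large subunit (proteins named RPL, and the stalk proteins RPLP0, RPLP1 and RPLP2) and a small subunit (RPS proteins and RPSA). The mRNAs of these proteins are among the most abundant in growing cells. Most start with a terminal oligopyrimidine tract, a C followed by a run of C and T letters, through which the growth-signalling kinase mTOR and the RNA-binding protein LARP1 control their translation. Here the mRNA levels of these genes were followed in MDA-MB-231, a breast cancer line of the triple-negative kind, in which the transcriptional corepressor CtBP2 had been silenced or which had been exposed to a small-molecule CtBP inhibitor. RNA came from whole cultures, in which fewer cells with a transcript and less of it per cell cannot be told apart.

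The genes were chosen by name: all gene probes whose array name or current symbol is RPL or RPS with a digit, RPLP0, RPLP1, RPLP2 or RPSA, without RPS6 kinases and pseudogenes. They are 87 of the 30988 genes named on the array and 210 of its 41000 probes, with 53 genes of the large subunit and 34 of the small subunit. Of the 87, 10 are paralogues of another member, such as RPL39L of RPL39. A single probe stood for 30 members, and RPL21 had the most, 14. RPSA is represented only by 7 probes that the array names LOC388524, and RPL35A only by 1 probe named LOC441136. These are annotated elsewhere in the genome and were assigned through a listed transcript, so their values are uncertain. The mRNAs of this family have many processed copies in the genome, from which the probes may not tell them apart.

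The series has 15 two-colour arrays, 5 described as biological replicates for each of 3 conditions. shCtBP2 cells carry a stable RNA interference construct against CtBP2, and the other arrays hold cells exposed for 24 h to HIPP (sodium 2-hydroxyimino-3-phenylpropanoate) or P4 (sodium 2-hydrazone-3-phenylpropanoate). Both compounds share the phenylpropanoate part and differ in carrying an oxime or a hydrazone. On every array the condition carried Cy5 and the control Cy3 with no dye swap, so a ratio against the control can include a dye effect of the probe, while a constant dye effect cancels in a difference between conditions. The labels name untreated MDA-MB-231 cells as the control on all arrays, whereas the methods set shCtBP2 cells against scrambled control cells. The doses of HIPP and P4 on the arrays are not given in the sources used here, while the methods name unequal doses for growth assays of these cells. Values below are log2 ratios of condition over control, the mean of a gene's probes, and a gene passed the test at a limma p under 0.05 after Benjamini-Hochberg adjustment over all genes tested.

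Per array, 65.2 to 77.5% of the spots passed the background test in Cy5 and 64.9 to 81.0% in Cy3, with 0 saturated, and precision is limited by the number of arrays. The log2 ratio of CTBP2 in shCtBP2 cells was −0.41 ± 0.11 (SD, n = 5 arrays) and lower than the control on 5 of 5, with a limma adjusted p of 0.0602. That p uses a spread shared by all 15 arrays, and the spread of CTBP2 was wider with HIPP and P4. CTBP2 was higher than the control with HIPP on all 5 arrays (0.57 ± 0.36, limma adjusted p = 0.0026), and at 0.17 ± 0.35 with P4 (limma adjusted p = 0.345). VIM, CD44 and KRT18 were well above background on 15 of 15 arrays, and PGR, CDH1, KRT5 and PTPRC on 0. ERBB2 and KRT14 were above background on 15 of 15, and ESR1, CD3E, PECAM1 and CDH5 on some, so the markers matched the labelled line in part. The arrays lay on 4 slides: P4 replicates 1 to 4 on slide 1, P4 replicate 5 and HIPP replicates 1 to 3 on slide 2, HIPP replicates 4 and 5 and shCtBP2 replicates 1 and 2 on slide 3, and shCtBP2 replicates 3 to 5 on slide 4.

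To show what the family shares, the RefSeq sequence (GRCh38.p14) of the 21 bases centred on each annotated start was searched, on the strand of the gene, for a C followed by at least 4 letters that are each C or T. Of the 70 members with a listed start, 57 (81.4%) had such a tract at 1 or more of their starts, against 34.2% of all 27305 genes of the table. Among the 69 mitochondrial ribosomal protein genes listed, 20 (29.0%) had one. The windows below are those of members that the results turn on, with the tract in capitals and the annotated start at base 11. The first group passed the test as higher than the control with HIPP and P4.
RPLP1, chr15:69452808-69452828, plus strand: ggcgcgagagCCCCTTTCCTC
RPL38, chr17:74203668-74203688, plus strand: aagtctcgttCTTTTTCgtcc
RPL12, chr9:127451396-127451416, minus strand: cgatttccggCCTCTCggctt
RPL27A, chr11:8682782-8682802, plus strand: gaaggCCTTCCTTTTTCgtct
The second group passed it as lower with HIPP, P4 or both.
RPS3A, chr4:151099618-151099638, plus strand: cccaCTTCCgCCCTTTTggct
RPL22, chr1:6199585-6199605, minus strand: cgctcaCCTCCCTTTCTaact
RPL15, chr3:23916535-23916555, plus strand: tggggcctgctggaggagctt
RPL7L1, chr6:42879606-42879626, plus strand: gtgcggcgccgtagctaggag
The third group changed in shCtBP2 cells, with RPS23 and RPL26 higher and RPL31 and RPS7 lower.
RPS23, chr5:82278344-82278364, minus strand: cggtgCTTCTCTCTTTCgctc
RPL26, chr17:8383183-8383203, minus strand: gcgtgtagttCTCTTCCCTTT
RPL31, chr2:101002279-101002299, plus strand: CCTTCgcgCTCTTCCTTTCCa
RPS7, chr2:3575250-3575270, plus strand: cgCCCTCCTCCTCgcgctgtt
Tracts were found among members that rose and members that fell. Of the called members with a listed start, 13 of 13 higher with HIPP and 8 of 11 lower with HIPP had a tract, and for P4 these were 14 of 14 and 11 of 14. In shCtBP2 cells all 6 higher and all 3 lower members with a listed start had one. RPL15 had none at any of its 3 listed starts, and RPL7L1 had none.

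The median log2 ratio over the 87 members was 0.03 for shCtBP2, −0.05 for HIPP and 0.04 for P4, against 0.02, 0.07 and 0.08 over all genes. The medians of single arrays ran from −0.01 to 0.06 in shCtBP2 cells, from −0.14 to 0.02 with HIPP and from −0.04 to 0.10 with P4, so that each condition had arrays on both sides of 0. These medians depended on the scaling. After normexp correction and loess they were 0.071, 0.045 and 0.14. On background-subtracted signals centred on each array's median they were 0.28, 0.066 and 0.47, next to −0.0056, 0.0012 and −0.027 over all genes, so that the HIPP median changed sign and those of shCtBP2 and P4 rose. The middle size of a member's mean, whatever its sign, was 0.12 for shCtBP2, 0.23 for HIPP and 0.24 for P4, and over all genes it was 0.20, 0.40 and 0.32. Within 1.5-fold of the control lay 85 of the 87 members for shCtBP2, 75 for HIPP and 82 for P4. The spread between arrays was also small, with a median SD of 0.10, 0.18 and 0.19 over the members against 0.25, 0.38 and 0.39 over all genes. Member probes were far brighter than most, and neither size nor spread was compared with genes of like brightness.

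**Figure D1:**
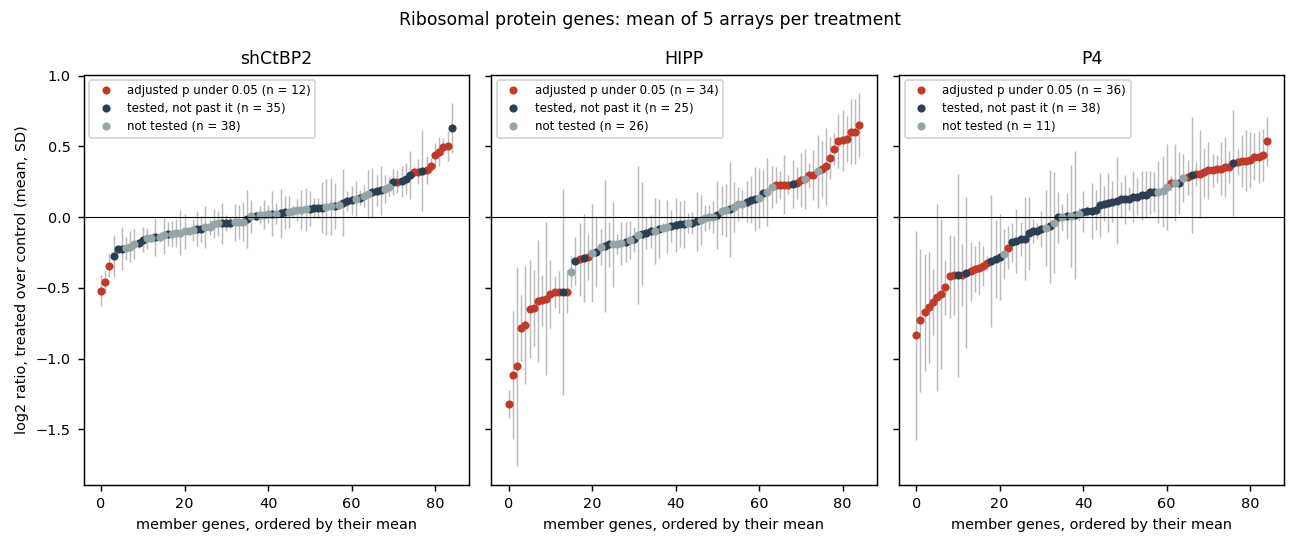
Mean log2 ratio of condition over control (y axis, bars are the SD over the 5 arrays) for 85 members without the Y-linked genes, ordered by their mean in each condition (x axis). In each panel most members sit near 0, and the lowest means with HIPP reach −1.32 for RPL15 while the highest reaches 0.65 for RPLP1.

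A filter of the study's methods, which removes the genes with the lowest spread of signals over the treated and control channels, left 49 of the 87 members to be tested for shCtBP2, 61 for HIPP and 76 for P4. It favours genes that changed among those left, and it also removed some members that pass without it, so the counts without it are given too. In shCtBP2 cells 12 members passed the test, 9 higher and 3 lower, where 13.4% of all genes tested did (6.52% higher and 6.87% lower). With HIPP 34 passed, 18 higher and 16 lower, against 48.7% of all genes (24.8% higher and 23.9% lower). With P4 36 passed, 19 higher and 17 lower, against 31.8% of all genes (17.0% higher and 14.8% lower). Without the filter 12, 38 and 38 of the 87 passed (13.8%, 43.7% and 43.7%), next to 11.4%, 45.0% and 29.6% of all genes, and with HIPP 33 of these 38 were among the 34. The fold-change thresholds of the methods (1.5 for shCtBP2, 2.5 for HIPP and 1.8 for P4) were passed as well by 0 members in shCtBP2 cells, 1 with HIPP (RPL15) and 0 with P4, where 6.55%, 7.05% and 8.46% of all genes passed both. RPL15 lay on the edge of its threshold, at 2.50002-fold. At 1.5-fold in each condition 0, 12 and 5 members passed, and 6.55%, 32.6% and 17.5% of all genes. These were 3 higher and 9 lower with HIPP, and 0 higher and 5 lower with P4. The directions over all genes at this threshold were not counted.
The higher and lower counts depended on the scaling of the arrays. On background-subtracted signals centred on the median of each array, 20 members were higher and 1 lower in shCtBP2 cells and 49 higher and 4 lower with P4. After normexp correction and loess, 38 were higher and 15 lower with P4. With the slide as a block 2 members passed in shCtBP2 cells and 12 with P4. Without shCtBP2 replicate 2 the count in these cells was 6, and without P4 replicate 5 the count with P4 was 23.

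In shCtBP2 cells the members that passed changed by less than 1.5-fold. RPS23, a small-subunit protein at the decoding centre, was at 0.42, 0.67, 0.54, 0.40 and 0.47 on replicates 1 to 5. All 5 arrays were above the control, and its mean was 0.50 ± 0.11 (SD, n = 5, limma adjusted p = 0.0133). RPL26, a large-subunit protein near the exit of the peptide tunnel, was at 0.46, 0.60, 0.46, 0.45 and 0.51 on replicates 1 to 5 (mean 0.50 ± 0.06, limma adjusted p = 0.00852). RPL13, RPS21 and RPS20 had means of 0.44, 0.36 and 0.33, each higher on 5 of 5 arrays. RPL13 belongs to the large subunit, and RPS21 and RPS20 to the small subunit. With the slide as a block RPS23 and RPL26 passed, while RPL13, RPS21 and RPS20 did not, with adjusted p of 0.362, 0.228 and 0.193.
The 3 members that fell were RPL31, RPS27A and RPS7. RPL31, a protein near the exit of the peptide tunnel, was at −0.42, −0.41, −0.63, −0.51 and −0.64 (mean −0.52 ± 0.11, limma adjusted p = 0.00139). RPS27A, which is made as a fusion with ubiquitin, had a mean of −0.46 ± 0.08 (limma adjusted p = 0.0423). RPS7, a small-subunit protein, had a mean of −0.34 ± 0.08 (limma adjusted p = 0.00641). No array of these 3 genes was above the control. On centred background-subtracted signals RPS27A and RPS7 no longer passed, with adjusted p of 0.355 and 0.284. With the slide as a block RPL31, RPS27A and RPS7 did not pass, with adjusted p of 0.111, 0.5 and 0.226. The largest mean of the family in these cells was that of RPL41, 0.63 ± 0.18, which did not pass (limma adjusted p = 0.11). RPL41 was higher on 5 of 5 arrays. The fit shares a gene's spread over the conditions, and RPL41 had an SD of 0.73 with HIPP and 0.72 with P4.

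With HIPP the lowest member was RPL15, a large-subunit protein bound deep in ribosomal RNA. Its log2 ratio was −1.21, −1.43, −1.40, −1.22 and −1.34 on replicates 1 to 5, well apart from the control on all 5. The mean of −1.32 ± 0.10 is 40.0% of the control signal (limma adjusted p = 2.99e-08). It averages a dim probe at −2.22 and a bright one at −0.42, which passed by itself (limma adjusted p = 0.000545). RPL39L, the paralogue of RPL39 best known from the testis, was at −0.35, −1.29, −0.25, −1.71 and −1.67 (mean −1.05 ± 0.70, limma adjusted p = 0.00254). All arrays of RPL39L were below the control, with replicates 1 and 3 nearest to it. RPS3A (−0.76 ± 0.42) and RPL5 (−0.65 ± 0.35), which forms the 5S particle with RPL11 and 5S ribosomal RNA, were lower on 5 of 5 arrays as well, and the mean of RPL5 averages probes at −1.10 and −0.19. RPL11 lay at −0.07 ± 0.03 and was removed by the filter.
The highest member was RPLP1, a protein of the acidic stalk that recruits elongation factors. It was at 0.30, 0.58, 0.70, 0.85 and 0.84 (mean 0.65 ± 0.22, limma adjusted p = 8.27e-05), above the control on all arrays. RPL23, RPS20, RPL38 and RPL27A had means of 0.60, 0.55, 0.54 and 0.54 and were higher on 5 of 5 arrays. Of the other stalk proteins, RPLP0 (−0.25 ± 0.35) and RPLP2 (0.18 ± 0.24) were not tested. RPS9 (mean 0.61) and RPL28 (mean −0.78) passed too, but both turned direction on their brightest probe, as described with the probes below.

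With P4 the largest changes were falls with wide replicate spread. RPL39L was at −1.75, −0.25, 0.08, −1.15 and −1.11 (mean −0.84 ± 0.74, limma adjusted p = 0.0185), so that 1 array was above the control. RPL7L1, a paralogue of RPL7 that acts in assembly of the large subunit, was at −1.28, −0.13, −0.26, −0.89 and −1.09 (mean −0.73 ± 0.51, limma adjusted p = 0.00536). RPS3A was at −1.13, −0.23, −0.24, −0.88 and −0.88 (mean −0.67 ± 0.41, limma adjusted p = 0.00432). RPL10A, which forms the stalk beside the exit site for tRNA, was at −1.05, −0.23, −0.20, −0.85 and −0.85 (mean −0.64 ± 0.39, limma adjusted p = 0.00768). For all 4 genes replicates 2 and 3 were nearest to the control and replicate 1 was lowest.
On centred background-subtracted signals RPS3A and RPL10A no longer passed, with adjusted p of 0.140 and 0.641.
RPL38 rose most with P4. It was at 0.72, 0.44, 0.35, 0.46 and 0.72 (mean 0.54 ± 0.17, limma adjusted p = 0.000524), 145% of the control and above it on all arrays. RPS20 (0.44 ± 0.18), RPL8 (0.43 ± 0.19), RPL12 (0.43 ± 0.17), RPL26 (0.40 ± 0.20) and RPL14 (0.40 ± 0.22) were higher on 5 of 5 arrays. RPLP1 had a mean of 0.34 ± 0.19, while RPLP0, the stalk base, fell to −0.42 ± 0.29 (limma adjusted p = 0.0193) and lost its call on its brightest probe and after normexp correction and loess. On centred background-subtracted signals RPLP0 turned direction, to 0.19. With the slide as a block RPL39L, RPS20, RPL26 and RPLP0 did not pass with P4, with adjusted p of 0.0559, 0.104, 0.753 and 0.127. With the P4 arrays fitted alone 4 of the 36 members called passed, RPS3A, RPL38, RPL22 and RPL15. RPLP0 is often used as a reference gene for RT-PCR, as is RPL13A, which lay at 0.00 ± 0.09 with P4. In shCtBP2 cells RPL13A was at −0.14 ± 0.04, lower on 5 of 5 arrays, and was removed by the filter. With HIPP it was at −0.10 ± 0.12 (limma adjusted p = 0.256).

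**Figure D2:**
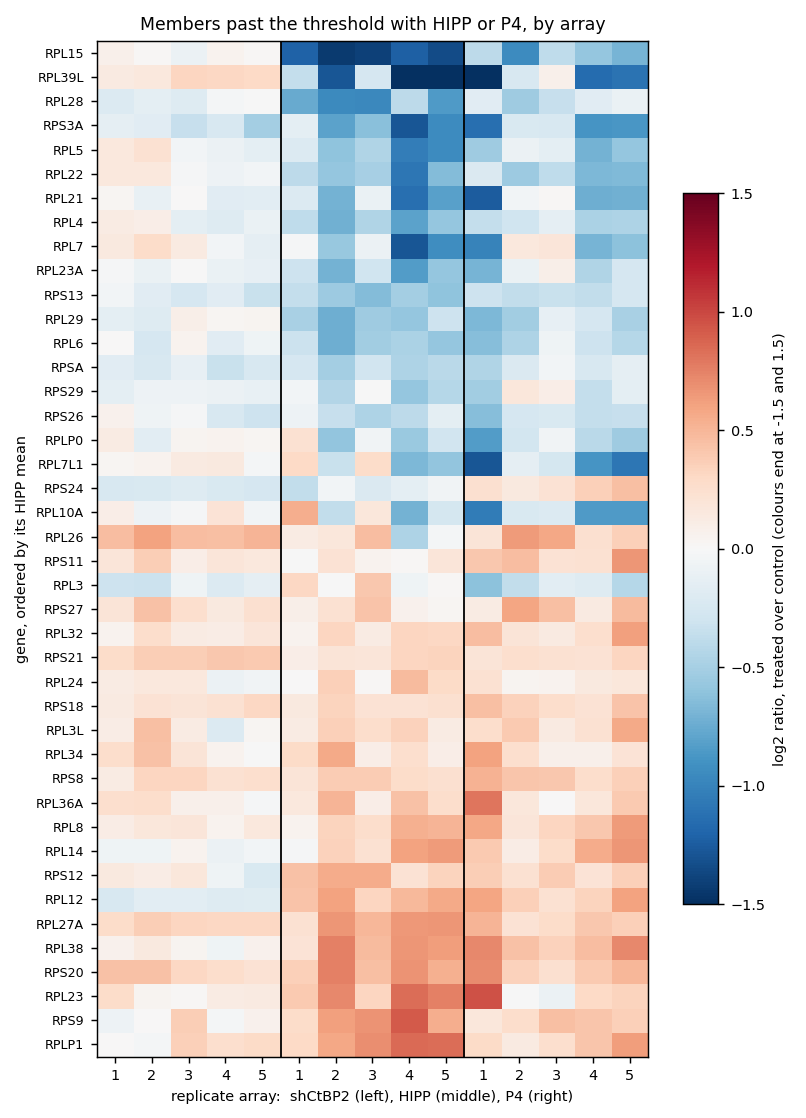
Log2 ratio of condition over control (colour) on each of the 15 arrays (columns, 5 replicates per condition) for members that passed the test with HIPP or P4, without 1 that is not reported here (rows, ordered by the HIPP mean). Many genes in the upper rows are bluest on HIPP replicates 2, 4 and 5 and P4 replicates 1, 4 and 5, for example RPL39L at −1.71 on HIPP replicate 4 and −1.75 on P4 replicate 1.

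Of the 16 that fell with HIPP, 10 were nearest to the control, or above it, on replicates 1 and 3, among them RPL39L, RPS3A, RPL5, RPL7 and RPL21. Of the 17 that fell with P4, 10 had this on replicates 2 and 3, among them RPL39L, RPS3A, RPL7L1, RPL10A and RPLP0. The arrays were picked out after the values were seen, and the share of all genes with these orders was not computed. RPL41, the shortest ribosomal protein, did not pass with either compound but ran the same way, at 0.02, −0.83, 0.41, −1.37 and −0.88 with HIPP and −1.40, 0.15, 0.40, −0.76 and −0.43 with P4. RPL15 did not, since its values with HIPP spanned only 0.22.

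The conditions were then compared with each other. Of the 41 members tested between HIPP and shCtBP2 cells, 15 differed, 6 higher and 9 lower with HIPP, where 26.3% of all genes did (12.2% higher and 14.1% lower). Without the filter 23 of 87 did, next to 26.7% of all genes, and with a 1.5-fold threshold 7 of 41 did, next to 22.1%. On slide 3, the slide with both conditions, 15 of 15 had the same direction, which is a description, since these arrays also entered the test. With the slide as a block 14 members differed, 10 of them among the 15, and RPL12 and RPL39L passed. RPL12, a protein of the factor-binding side of the large subunit, was at −0.24, −0.16, −0.15, −0.20 and −0.18 in shCtBP2 cells and 0.43, 0.60, 0.32, 0.49 and 0.56 with HIPP. Its difference was 0.67 (95% interval 0.43 to 0.90, limma adjusted p = 0.000351). RPL39L had the lowest difference among those that passed, −1.30 (95% interval −2.05 to −0.56, limma adjusted p = 0.0119), with all arrays above the control in shCtBP2 cells and all below it with HIPP. RPL15, which the filter removed from this comparison, had a difference of −1.34 (95% interval −1.60 to −1.08). RPS23 rose in shCtBP2 cells and had a mean of −0.29 ± 0.31 with HIPP, a difference of −0.79 (limma adjusted p = 0.00294).
Between P4 and shCtBP2 cells 7 of 42 members differed, 4 higher and 3 lower with P4, where 12% of all genes did (6.06% higher and 5.89% lower). Without the filter 9 of 87 did, next to 12.5%, and with a 1.5-fold threshold 2 did, next to 9.65%. Among those that passed, RPL12 was highest here too, by 0.61 (95% interval 0.38 to 0.85, limma adjusted p = 0.00220), and RPL7L1 lowest, by −0.80 (95% interval −1.32 to −0.27, limma adjusted p = 0.0473). RPL39L (−1.08, limma adjusted p = 0.0566) and RPL41 (−1.04, limma adjusted p = 0.0696) had lower differences that did not pass. No slide held both conditions. With the slide as a block 0 members differed, and without shCtBP2 replicate 1 or 2, or P4 replicate 4 or 5, 4 did, all higher with P4. On centred background-subtracted signals 6 differed, also all higher with P4. The lower calls, RPL7L1 among them, were thus lost in each of these settings. The comparison of HIPP with shCtBP2 cells and that of P4 with them share the shCtBP2 arrays.

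HIPP and P4 differed in 1 of the 54 members tested, RPL15, where 10.5% of all genes differed (4.39% higher and 6.15% lower with HIPP), and in 4 of 87 without the filter, next to 10.9%. With a 1.5-fold threshold the 1 member remained, next to 8.84% of all genes. RPL15 was lower with HIPP by 0.72 (difference −0.72, 95% interval −0.98 to −0.46, limma adjusted p = 0.00197), and its HIPP arrays did not overlap the P4 arrays at −0.39, −0.94, −0.38, −0.58 and −0.69. On slide 2, which holds 3 HIPP arrays and 1 P4 array, the difference was −0.66, and with the slide as a block it did not pass (limma adjusted p = 0.297). For 39 of the 54 members the 95% interval, which is not adjusted for their number, lay within 1.5-fold in both directions, with a median half-width of 0.28. RPL7L1 (0.53, 95% interval 0.01 to 1.05) and RPLP1 (0.31, 0.01 to 0.61) did not pass, and their intervals left room for differences beyond 1.5-fold. Since the doses on the arrays are not given, a difference of compound and one of dose cannot be told apart. On centred background-subtracted signals 11 members differed, all lower with HIPP, and the share of all genes under that setting was not counted.

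Member probes were far brighter than most on the array. Their median log2 intensity of 16.4 lay above 99.2% of all probes, and 197 of the 210 were well above background in both channels on 15 of 15 arrays. Of their readings 75.2% in the Cy5 channel and 78.6% in the Cy3 channel came from the second scan at low detector gain, which the software scales up for bright spots, against 3.30 and 3.70% of all readings. The ratios differed with brightness. The 96 brightest probes had a median ratio of 0.00 with HIPP and 0.08 with P4, close to the 0.01 and 0.06 of all probes that bright. The 38 probes from 12 to 15 had medians of −0.38 and −0.36, where all probes in that range had −0.06 and −0.01. In shCtBP2 cells the same 38 probes had a median of −0.02. The part of the scan or of brightness in these ratios was not tested.

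**Figure D3:**
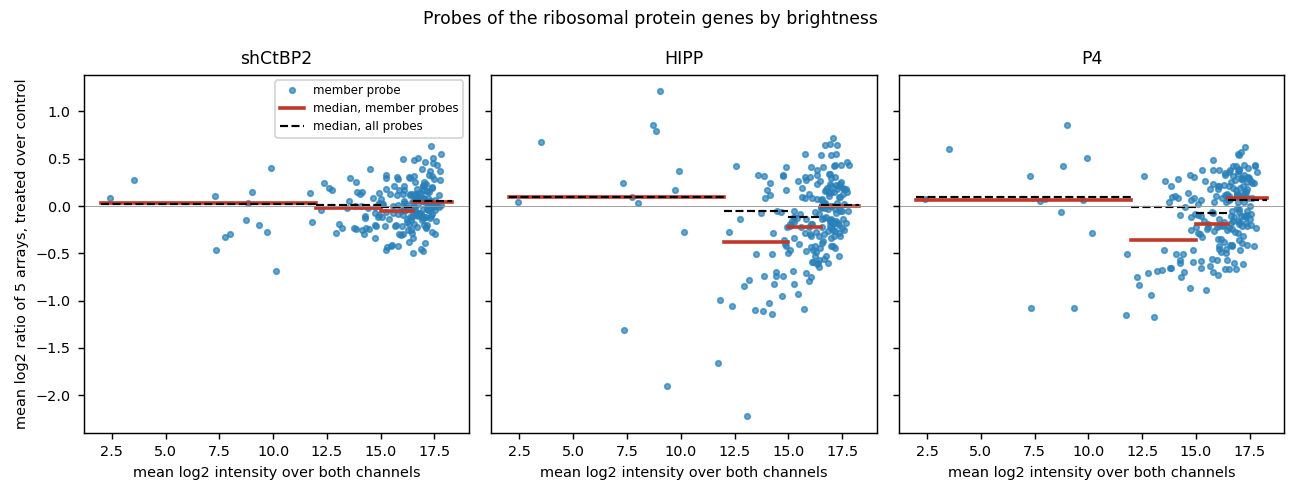
Mean log2 ratio of 5 arrays (y axis) against mean log2 intensity of both channels (x axis) for each member probe, with medians of member probes and of all probes in 4 ranges of intensity. With HIPP and P4 the member median is −0.38 and −0.36 from 12 to 15 and 0.00 and 0.08 in the brightest range, and in shCtBP2 cells it stays between −0.05 and 0.04.

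Probes of 1 gene could give different answers. Of the 57 members with several probes, probes of both signs were found in 28 for shCtBP2, 19 for HIPP and 20 for P4. The middle span between a gene's highest and lowest probe was 0.19, 0.34 and 0.28, and the widest in shCtBP2 cells was 0.70, for RPS26. The widest with P4 was 1.66, for RPL22. RPL15 has a dim probe (chr3:23936686-23936745, build hg17 of the array annotation) and a bright one (chr3:23935029-23935707) upstream of it. With HIPP the dim probe ran from −2.45 to −2.01 and the bright one from −0.58 to −0.28, so both fell on all arrays but by unequal amounts. With P4 the means were −1.17 and −0.03, and on the brightest probe RPL15 did not pass with P4 (adjusted p = 0.799).
RPL28 has the widest span with HIPP, 2.23. Its dim probe (chr19:60594968-60595025) ran from −2.22 to −1.43 and its bright probe (chr19:60591144-60591203) from 0.11 to 0.64, so that the gene was lower by the mean of its probes and higher, at 0.33, on the brightest. RPS9 was the opposite with HIPP, with 2 dim probes at 0.79 and 1.22 and the bright one at −0.19. RPL22 with HIPP had 3 probes below the control, at −1.66, −0.84 and −0.43, and its dimmest probe at 0.37. RPL5 with HIPP had −1.10 ± 0.65 on its dim probe (chr1:93011151-93011210) and −0.19 ± 0.08 on its bright one (chr1:93015095-93015153). RPL13, which the filter removed with HIPP, had 0.13, 0.44 and 0.43 there on its 3 brighter probes and −0.83 on the dimmest.
The pair of RPLP1 probes had 0.65 and 0.66 with HIPP. The 6 RPS3A probes had 1 sign but ran from −1.02 to −0.42. The fall of RPS3A was smallest on its 2 brightest probes, at −0.44 and −0.42.

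**Figure D4:**
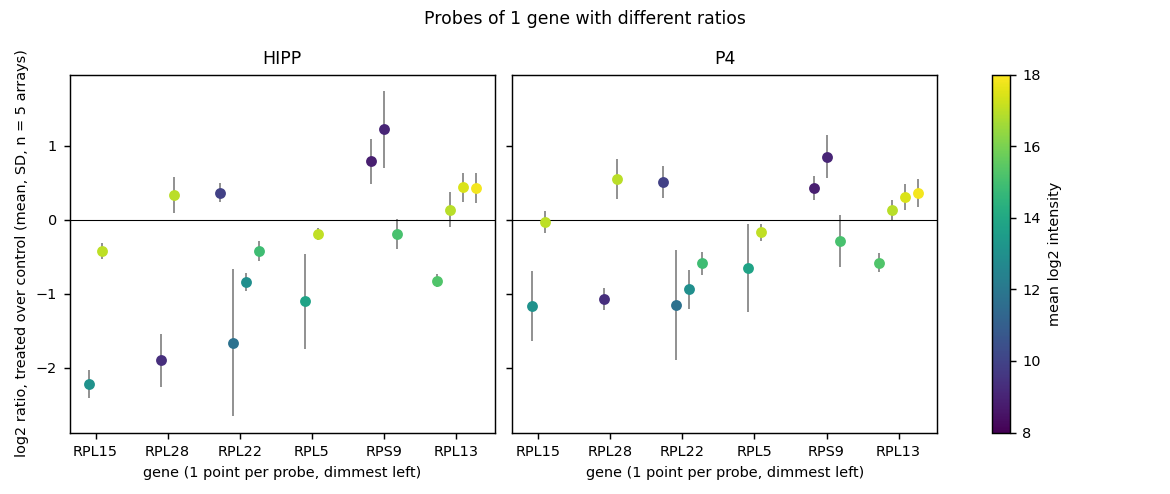
Mean log2 ratio (y axis, bars are the SD, n = 5 arrays) of each probe of 6 genes (x axis, dimmest probe at the left of each gene), coloured by log2 intensity. The probes of RPL15 and RPL28 lie far apart with HIPP, those of RPL28 by 2.23, and the 2 dim RPS9 probes lie above its bright one.

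Paralogues were set beside their partners, and the differences within pairs were not tested. RPL39 lay at −0.01 ± 0.09 with HIPP (not tested) and −0.17 ± 0.23 with P4 (limma adjusted p = 0.153), while RPL39L fell with both. RPL22, which is also a tumour suppressor in lymphoid cells, fell with HIPP (−0.64 ± 0.27) and P4 (−0.50 ± 0.20), and its partner RPL22L1 was at −0.07 ± 0.19 and 0.09 ± 0.23. The probes of RPL22 disagreed, by a span of 1.66 with P4. RPL3L, the muscle form of RPL3, rose slightly with HIPP (0.24 ± 0.11, limma adjusted p = 0.0493) and P4 (0.32 ± 0.17, limma adjusted p = 0.0205). Its only probe is dim, with a mean log2 control signal of 8.18 on the HIPP arrays and 7.09 on the P4 arrays. All probes under a log2 intensity of 12 had a median ratio of 0.09 with both compounds. RPL3 was at 0.13 ± 0.21 with HIPP and fell with P4 (−0.36 ± 0.19), a direction that turned to 0.069 on centred background-subtracted signals. RPS27 was higher with P4 (0.36 ± 0.21), and RPS27L had 0.38 ± 0.37 and did not pass. RPL36A rose with HIPP and P4, by 0.30 and 0.31, and RPL36AL had 0.23 and 0.12, which did not pass. RPL10L lay at −0.21 with HIPP and 0.02 with P4. RPL10 lay at 0.05 and 0.15 over 6 probes, of which 2 were near background, and at −0.11 and 0.053 over the probes well above background. Of the 10 paralogues, 3 of 8 tested passed with P4, 2 of 7 with HIPP and 0 of 9 in shCtBP2 cells, where 31.8%, 48.7% and 13.4% of all genes did.
Some members are known from signalling or disease. RPS6, the substrate of S6 kinase, was at −0.15 ± 0.07, 0.00 ± 0.11 and 0.04 ± 0.20 in shCtBP2, HIPP and P4, the last over 4 arrays. RPS19, the gene most often mutated in Diamond-Blackfan anaemia, was at 0.07 ± 0.20, −0.04 ± 0.07 and 0.18 ± 0.14. RPS14, lost in the 5q deletion syndrome, was at −0.03 ± 0.14, −0.19 ± 0.15 and 0.10 ± 0.21. None of these values passed, and those of shCtBP2 and HIPP were removed by the filter. RPSA, the laminin receptor protein, was at −0.39 ± 0.11 with HIPP and lower on 5 of 5 arrays. The filter removed it there, and without the filter it passed (limma adjusted p = 0.000854). RPSA fell with P4 (−0.22 ± 0.15, limma adjusted p = 0.0454), a call lost on its brightest probe, and turned to 0.16 on centred background-subtracted signals.

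Both subunits held members that rose and fell. In shCtBP2 cells 4 large-subunit and 8 small-subunit members passed, of 30 and 19 tested. With HIPP 23 of 37 and 11 of 24 passed, and with P4 22 of 45 and 14 of 31. Over all genes tested 13.4%, 48.7% and 31.8% passed in shCtBP2 cells and with HIPP and P4. The median ratios of the large and small subunit were 0.03 and 0.04 in shCtBP2 cells, −0.05 and −0.04 with HIPP, and 0.01 and 0.14 with P4.
The other translation genes were read beside them, with the same shares of all genes: 6.52% higher and 6.87% lower for shCtBP2, 24.8% and 23.9% for HIPP, and 17.0% and 14.8% for P4. Of the 77 mitochondrial ribosomal protein genes, which serve the ribosome of the mitochondrion, 5 rose and 6 fell of 49 tested in shCtBP2 cells. With HIPP 10 rose and 20 fell of 53 tested, and with P4 5 rose and 16 fell of 53. MRPL42 was lowest with HIPP, at −0.99 ± 0.20, and MRPL55 highest, at 0.68 ± 0.16.
A list of 17 translation factors and related proteins holds genes whose mRNAs also carry oligopyrimidine tracts. With HIPP 1 rose and 10 fell of 13 tested, and with P4 1 rose and 6 fell of 10, with medians of −0.32 and −0.29 over the list. In shCtBP2 cells 1 rose and 0 fell of 6 tested, with a median of −0.01, and the 1 was TPT1 at 0.53 ± 0.18. NAP1L1, a histone chaperone, was lowest with HIPP at −1.58 ± 0.18 and with P4 at −0.72 ± 0.30. FAU, a ribosomal protein fused to a ubiquitin-like sequence, was the 1 that rose with each compound, at 0.35 ± 0.19 and 0.53 ± 0.10.
Of the 32 ribosome biogenesis genes 19 were tested in shCtBP2 cells, where 0 rose and 7 fell, and the median over the list was −0.15 there, 0.01 with HIPP and −0.15 with P4. NOP2, an rRNA methyltransferase, was lowest at −0.70 ± 0.15. With HIPP 2 rose and 7 fell of 20 tested, and with P4 2 rose and 7 fell of 22. NHP2, of the particles that place pseudouridine, was lowest with HIPP (−0.86 ± 0.17) and P4 (−0.70 ± 0.17), and NOP58 was highest with HIPP (0.73 ± 0.55).
Of 14 genes of RNA polymerase I and its factors, 0 rose and 2 fell of 12 tested in shCtBP2 cells, 2 rose and 4 fell of 11 with HIPP, and 0 rose and 2 fell of 9 with P4. POLR1B was lowest in shCtBP2 cells at −0.73 ± 0.06. POLR1D was lowest with HIPP (−1.01 ± 0.16) and P4 (−0.57 ± 0.19), and POLR1G was highest with HIPP (0.60 ± 0.37).
Of 12 genes of growth signalling, 1 rose and 2 fell of 8 tested in shCtBP2 cells, 4 rose and 2 fell of 10 with HIPP, and 4 rose and 1 fell of 8 with P4. DDIT4, an inhibitor of mTOR signalling, was highest in shCtBP2 cells at 1.10 ± 0.34 and with P4 at 2.61 ± 0.26, and SESN2, another inhibitor, was highest with HIPP at 1.99 ± 0.26. TSC1 and TSC2, which together inhibit mTOR, fell in shCtBP2 cells (TSC1, −0.38 ± 0.12) and with HIPP (TSC2, −0.69 ± 0.24). RPS6KB2, an S6 kinase, was lowest with P4 at −0.996 ± 0.62.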

How the data were processed

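The authors extracted each scan with Feature Extraction (9.5 in the file headers), which subtracts background and removes dye differences, and deposited per-spot signal intensity with decimal commas and a log10 ratio table of the same arrays. The deposited log10 ratios matched those of the scanner files within 0.00499. Log2 ratios were taken from the processed intensities. Flagged spots (78 to 265 per array) were left out, spots were averaged per probe and probes per gene. Genes measured on at least 3 of 5 arrays were kept, and the lowest 11% by interquartile range over 10 channel signals were removed per treatment. Probes were named by accession in RefSeq tables where listed (26826 of 41000), otherwise as on the array. limma 3.58.1 (R 4.3.3) fitted all 15 arrays together and was tested on simulated data. Members, lists and tests were chosen with earlier results of these data known. Members named are the 6 highest and 6 lowest past the threshold with 1 direction on all arrays, the extremes of each difference, and fixed reference genes and paralogue pairs. The probe details, RPL41, RPL21 and RPS23 with HIPP were chosen after their values were seen. Y-linked members were counted but their values are not printed. Some other members past the threshold are counted but not reported here by name. Alternatives were normexp (offset 50) with loess, centred signals, the deposited ratios, probe choice, filters, slide, replicate number, separate fits, the methods' t-test and leaving out arrays.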

Additional observations from a re-analysis of the deposited data

Results flagged for a closer look

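Of 107 groups of 5 array values checked for a value far from the others, 4 held one, and chance alone marks about 1 in 20 such groups. RPS21 in shCtBP2 cells was at 0.27 on replicate 1, against 0.37 to 0.41 on the others. RPL36AL with HIPP was at 0.53 on replicate 2, against 0.12 to 0.22. RPL10 with HIPP was at 0.37 on replicate 4, against −0.09 to 0.03, and 2 of its 6 probes were well above background in both channels on 0 and 1 of the HIPP arrays. RPL11 with P4 was at −0.019 on replicate 1, against 0.05 to 0.07.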

How the results depend on the processing

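The counts of members called (12 for shCtBP2, 34 for HIPP, 36 for P4, and 15, 7 and 1 for the differences) moved by more than 1.5 times as follows. Among these settings, shares of all genes were counted only for the range filter and the fold thresholds. Centred background-subtracted signals gave 21 in shCtBP2 cells and 11 for HIPP minus P4. The slide as a block gave 2 in shCtBP2 cells, 12 with P4, 0 for P4 minus shCtBP2 and 0 for HIPP minus P4. Each treatment fitted alone gave 21 with HIPP and 4 with P4. The methods' t-test gave 6 and 0 after adjustment and 18 and 16 before it with HIPP and P4. A 1.5-fold threshold gave 0, 12 and 5, and 7, 2 and 1 for the differences of HIPP and P4 from shCtBP2 and from each other, and the methods' thresholds gave 0, 1 and 0. No range filter gave 23 for HIPP minus shCtBP2 and 4 for HIPP minus P4. Leaving out each array gave 6 to 9 in shCtBP2 cells, 26 to 35 with HIPP, 23 to 39 with P4, 10 to 18, 4 to 8 and 1 to 2 for the differences. The samples share only a replicate number: with the replicate number as a block 2 members differed for HIPP minus P4, the other counts stayed within 1.5 times (15, 36 and 41 called), and 13 of 15 same-numbered pairs had a correlation of deviations over 0.1 (lowest −0.03). The members' median was 0.071 (shCtBP2), 0.045 (HIPP) and 0.14 (P4) after normexp and loess, 0.28, 0.066 and 0.47 on centred signals, and 0.067 in shCtBP2 cells with the slide as a block. Direction turned on the brightest probe for RPS9 (−0.19) and RPL28 (0.33) with HIPP, and on centred signals for RPL11 in shCtBP2 cells (0.34) and for RPLP0 (0.19), RPSA (0.16), RPL39 (0.30) and RPL3 (0.069) with P4. The causes were not tested. Of 50 named values past the threshold, 16 stayed past it under all settings without a fold threshold or the t-test, among them RPL15, RPL39L, RPLP1 and RPL38 with HIPP.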
